A study of Mus musculus with 2 samples.

Results

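The respiratory chain and ATP synthase genes of mouse splenic CD8+ T cells are described here in 2 bulk RNA-seq libraries. The cells came from wild-type animals that the labels call ND mice. The cells of 1 library were kept for 8 h in RPMI 1640 medium, called complete medium here, and those of the other for 8 h in RPMI 1640 without methionine. Each medium had 1 library, so the difference between media has no replicate check, no p-value is given, and the spread between cultures or animals is unknown. Tissue, cell type and genotype were labelled alike in both groups, and the labels do not say whether both came from the same animals. Members were the protein-coding genes whose symbols name a subunit of complexes I to V, by a fixed pattern of symbols (Nduf, Sdh, Uqcr, Cox4 to Cox8, Atp5 and the mt- genes of these complexes). The pattern matched 98 of the 54532 gene identifiers in the table, 85 in the nuclear genome and 13 in the mitochondrial genome.

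The respiratory chain passes electrons from NADH and succinate to oxygen through complexes I to IV of the inner mitochondrial membrane, and complex V, the ATP synthase, uses the proton gradient built by complexes I, III and IV to make ATP. Complex II is encoded wholly by nuclear genes. The other complexes combine nuclear subunits with a few made inside the mitochondrion from its own genome, in which every member except mt-Nd6 is read in the same direction. Activated T cells build up this machinery as they leave quiescence, beside a high rate of glycolysis.

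The complete-medium library held 14646527 counts and the methionine-free library 19647681. The defining genes of the labelled cell type were present. In complete and methionine-free medium Cd8a stood at 664 and 527 CPM (TMM-scaled counts per 1000000) and Cd8b1 at 398 and 358 CPM. Cd3e stood at 146 and 154 CPM, Cd3d at 175 and 176, Cd3g at 122 and 107, and Trac at 268 and 266. Markers of other cell types were lower. The 3 stromal and endothelial markers summed to 35.9 and 21.8 CPM, nearly all of it Pecam1 (521 and 423 counts). Col1a1 had 1 and 3 counts, and Pdgfrb 5 and 2. Cd4 stood at 0.613 and 0.561 CPM. The 4 B cell markers summed to 9.67 and 6.18 CPM, and 8 monocyte, macrophage and dendritic cell markers to 8.58 and 14.4 CPM. In the last of these sums, Flt3 went from 2.25 to 7.60 CPM and Cd68 from 4.63 to 6.02 CPM. Cd14 was also higher, at 1 and 4 counts, while Lyz2, Csf1r, Adgre1, Itgam and Xcr1 were lower in CPM, all at few counts. The neutrophil markers S100a8 and Ly6g had 0 counts in both libraries. In bulk RNA, fewer cells of a type and less RNA per cell cannot be told apart. A gene is called measured when its mean over both libraries is at least 10 counts, which held for 90 of the 98 members, 78 nuclear and 12 mitochondrial. A fold is the ratio of scaled counts, and the range in parentheses after it is a 95% interval that covers counting error only. Levels of different members are set side by side only as CPM per kilobase of the gene's merged exons (CPM per kb). Cell type markers are given in CPM, and shares of counts are named as shares.

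Several members have near-identical copies elsewhere in the genome, and these bear on how their counts are read. The pairs shown here are the clearest cases, from GENCODE M21 transcripts, 5′ to 3′ on the gene's strand, with capitals at the bases that differ within a pair. The first pair is bases 1 to 90 of mt-Co2 (chrM:7013-7696, plus strand), which encodes cytochrome c oxidase subunit 2, and of the unprocessed pseudogene Gm28661 (chr1:24614885-24615565, minus strand). Over 681 aligned bases they differ at 0 positions.
mt-Co2: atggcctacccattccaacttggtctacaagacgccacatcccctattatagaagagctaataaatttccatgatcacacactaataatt
Gm28661: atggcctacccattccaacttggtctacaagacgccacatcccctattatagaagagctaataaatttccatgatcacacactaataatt
The second pair is bases 1 to 90 of mt-Nd3 (chrM:9459-9806, plus strand), a complex I gene, and of Gm28438 (chr1:24612775-24613119, minus strand), with 1 difference in 345 aligned bases.
mt-Nd3: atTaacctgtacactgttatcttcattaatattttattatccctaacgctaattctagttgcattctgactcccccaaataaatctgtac
Gm28438: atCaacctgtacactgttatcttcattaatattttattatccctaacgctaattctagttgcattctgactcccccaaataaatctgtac
The third pair is bases 205 to 294 of the Ndufa12 transcript (gene chr10:94198720-94221443, plus strand) and bases 79 to 168 of the processed pseudogene Gm15920 (chr5:130188395-130188796, plus strand), with 2 differences in 402 aligned bases, 1 of them in this stretch.
Ndufa12: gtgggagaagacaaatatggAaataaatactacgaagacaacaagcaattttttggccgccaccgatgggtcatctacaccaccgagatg
Gm15920: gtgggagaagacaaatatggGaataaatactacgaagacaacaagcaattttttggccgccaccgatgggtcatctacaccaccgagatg
The labels do not say how reads that match both sequences of a pair were counted.

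Most subunit genes were somewhat lower without methionine, and few by much. Of the 90 measured members, 74 had a log2 difference (methionine-free minus complete) below 0, against 47.6% of all 13041 measured genes. At 1.5-fold, 18 members were lower, against 18.0% of all measured genes, and 2 were higher, against 15.7%. Lower members were thus about as frequent as lower genes in the whole table. The median log2 difference was -0.25 over the 78 nuclear members and -0.10 over the 12 mitochondrial members, beside 0.04 over all measured genes. The middle 50% of nuclear members lay between -0.47 and -0.09, a narrower range than the -0.39 to 0.40 of all measured genes. The counting interval lay wholly below a ratio of 1 for 63 members, against 31.5% of measured genes, and wholly above 1 for 9, against 35.3%. Interval width and the spread of differences depend on the counts of a gene, which were not matched between members and all measured genes. At 2-fold, 2 members were lower, against 9.29% of measured genes, and 1 was higher, against 5.8%. All members are protein-coding, and among the 11133 measured protein-coding genes 17.2% were lower and 14.1% higher at 1.5-fold, and 8.9% lower and 4.67% higher at 2-fold. Of these genes 47.3% had a log2 difference below 0, 33.5% an interval wholly below 1 and 37.4% one wholly above 1. Among nuclear members, Pearson's r between the log2 difference and the log2 mean level per length was 0.067, and Spearman's rho was 0.005 (n = 78 genes of the same 2 libraries), so the difference did not follow the level of a gene.

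**Figure D1:**
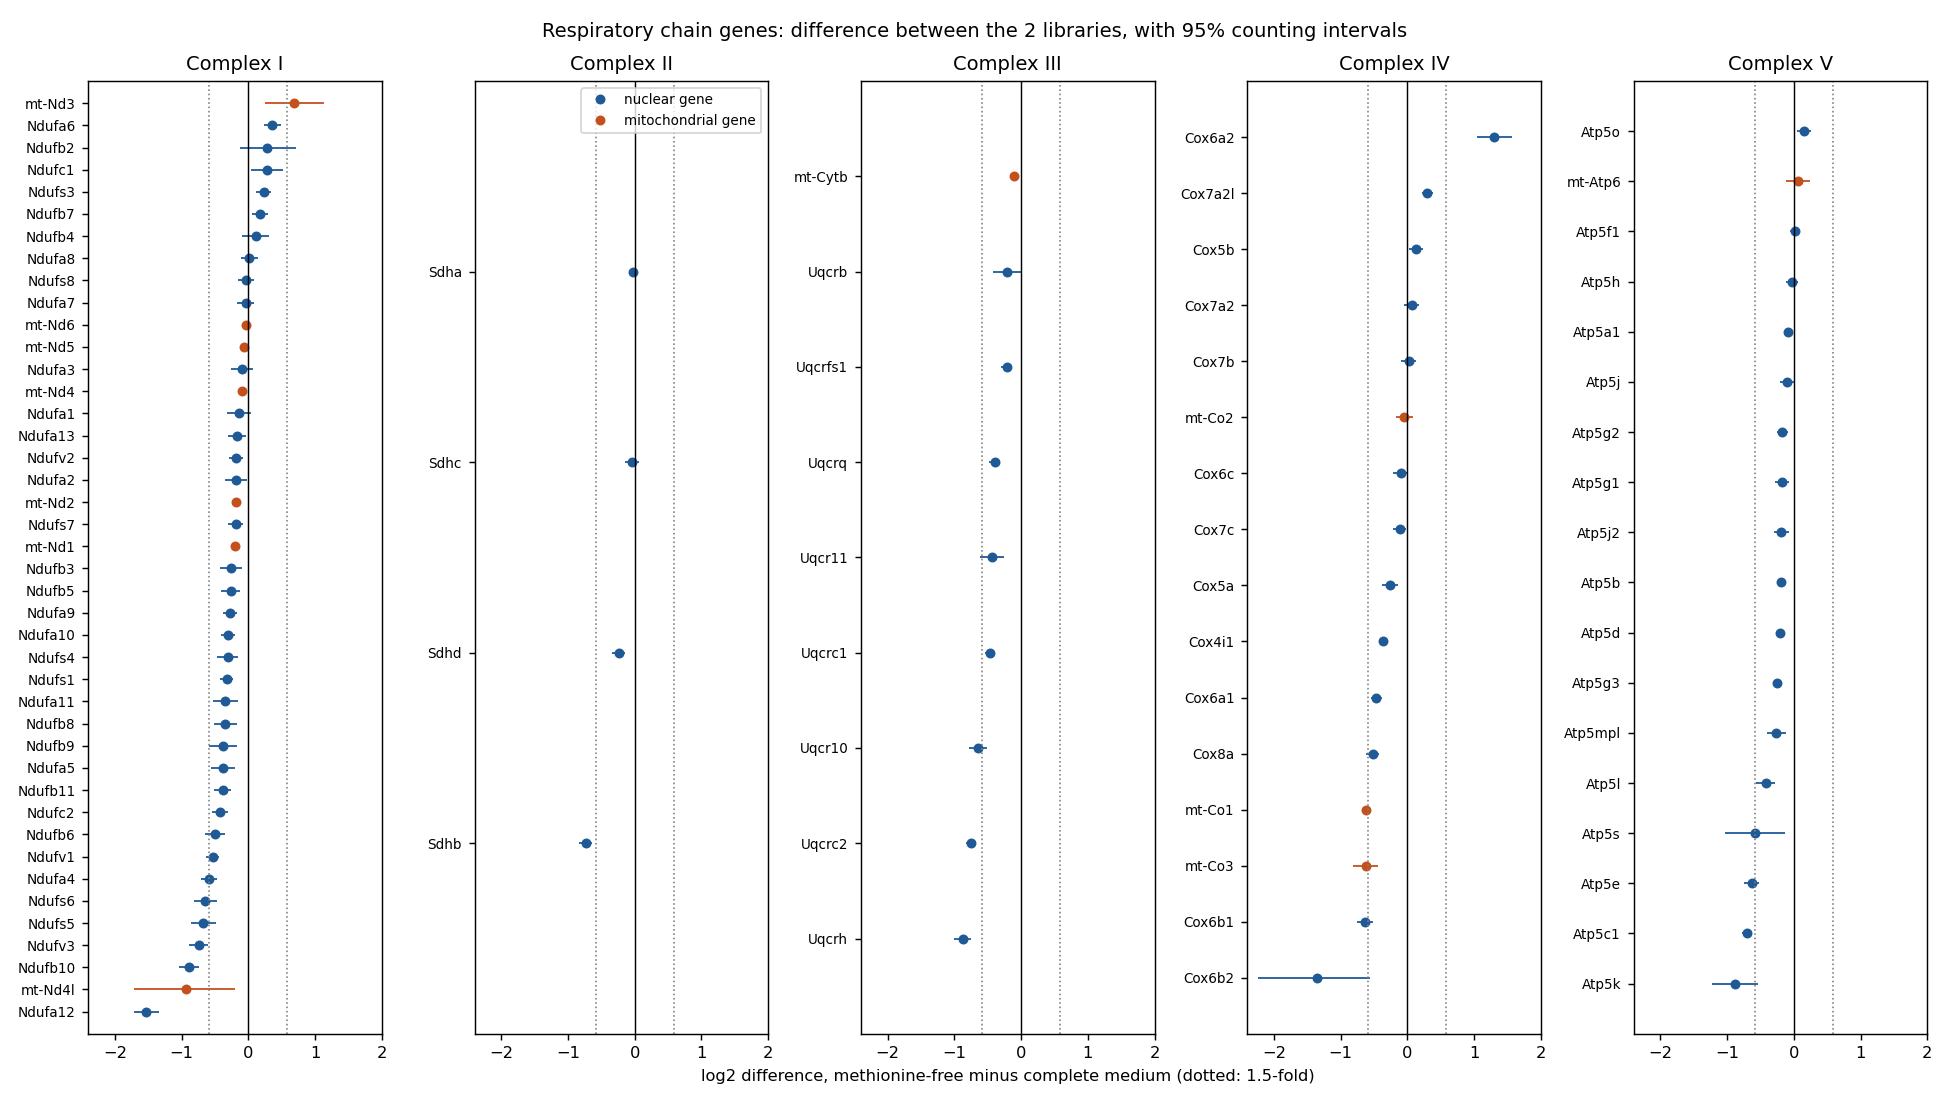
The log2 difference of the measured members reported here (methionine-free minus complete medium), by complex, with its 95% counting interval, for nuclear genes (blue) and mitochondrially encoded genes (orange), 1 library per medium. Most points lie just left of 0, Ndufa12 lies farthest left and Cox6a2 farthest right, and every measured member of complexes II and III lies below 0.

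Complex I, the NADH dehydrogenase, had 36 measured nuclear members, of which 6 were at least 1.5-fold lower and none higher, with a median of -0.27. Over all measured genes 18.0% were lower and 15.7% higher, and these shares stand beside the counts of every complex and module below. By position in the enzyme, 3 of the 10 genes of the N module, which oxidises NADH at the tip of the matrix arm, were lower (median -0.32), as were 0 of the 6 genes of the Q module, which reduces ubiquinone (median -0.19), and 2 of the 19 nuclear genes of the membrane arm (median -0.27). The remaining lower gene was Ndufa4, whose product was first described in complex I and later found in complex IV. Its 1296 counts in complete medium and 1150 in methionine-free medium made it 1.504-fold lower (1.39 to 1.63), just past the threshold.

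Within the N module, Ndufa12, an accessory subunit gene, had 746 counts in complete medium and 345 in methionine-free medium. That was 2.88-fold lower (2.54 to 3.29), the lowest log2 difference of any measured member. Its copy Gm15920, shown above, moved the other way, with 253 counts in complete medium and 432 in methionine-free medium, a ratio of 1.28 (1.09 to 1.501). Summed, the gene and its copy went from 999 to 777 counts, 1.72-fold lower (1.56 to 1.89). How reads were divided within this pair was not tested. Ndufv3, an accessory gene of the NADH-binding part, went from 887 to 707 counts, 1.67-fold lower (1.51 to 1.85). Ndufs6, which encodes a zinc-binding subunit, went from 602 to 513 counts, 1.57-fold lower (1.39 to 1.76). The other genes of this module stayed within 1.5-fold. Ndufv1, which encodes the flavin-bearing subunit that receives electrons from NADH, was 1.45-fold lower (1.36 to 1.55), at 125 and 86.6 CPM. Ndufs1, which encodes a core iron-sulfur subunit, went from 111 to 88.1 CPM, a log2 difference of -0.33. Ndufa6 lay on the other side, with 798 counts in complete medium and 1368 in methionine-free medium, 1.28-fold higher (1.18 to 1.40), the highest of the nuclear complex I genes.

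In the Q module no gene passed 1.5-fold. Of 6 intervals, 4 lay wholly below 1, against 31.5% of all measured genes, and 1 wholly above, against 35.3%. Ndufa5 and Ndufa9, both accessory genes, were 1.30-fold lower (1.15 to 1.48) and 1.21-fold lower (1.13 to 1.31). Ndufs8, which encodes a core iron-sulfur subunit, went from 71.7 to 70.0 CPM with an interval that held 1. Ndufs3, another core gene, went from 74.1 to 86.9 CPM, 1.17-fold higher (1.09 to 1.27). In the membrane arm, Ndufb10 went from 914 to 659 counts, 1.85-fold lower (1.67 to 2.05), and Ndufs5 from 506 to 423 counts, 1.60-fold lower (1.40 to 1.82). Both are accessory genes without a redox centre. The other 17 nuclear membrane arm genes stayed within 1.5-fold, from Ndufb6 at 1.42-fold lower (1.28 to 1.57) to Ndufb2, whose 78 and 127 counts gave a ratio of 1.22 with an interval that held 1.

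Complex II, succinate dehydrogenase, joins the citric acid cycle to the chain and is built from 4 subunits. Sdhb, which encodes its iron-sulfur subunit, stood apart from the other 3 genes: it went from 1941 to 1558 counts, 1.66-fold lower (1.55 to 1.78). Sdha, the flavoprotein gene, had 4786 and 6258 counts, or 326 and 319 CPM, and its interval held 1. Sdhc, 1 of the membrane anchor genes, had 1247 and 1614 counts and an interval that held 1, and Sdhd, the other, had 1755 and 1982 counts and was 1.18-fold lower (1.11 to 1.26). The 4 genes of this enzyme thus differed by unequal factors.

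Complex III, which moves electrons from ubiquinol to cytochrome c, had a nuclear median of -0.45, the lowest of the 5 complexes over all measured members. Without members that overlap a gene or have a pseudogene with counts, it was -0.43 over 4 genes, beside -0.49 for 6 genes of complex IV. All 8 of its nuclear members had intervals wholly below 1, against 31.5% of all measured genes. At 1.5-fold 3 of them were lower, against 18.0%. Uqcrh, the hinge protein gene, went from 1250 to 908 counts, 1.84-fold lower (1.68 to 2.003). Uqcrc2, which encodes a large core protein on the matrix side, went from 3152 to 2500 counts, 1.68-fold lower (1.60 to 1.77), and Uqcr10, a small accessory gene, from 975 to 829, 1.57-fold lower (1.43 to 1.72). Uqcrc1, the partner of Uqcrc2 in the core, was 1.38-fold lower (1.31 to 1.45), and Uqcrfs1, which encodes the catalytic Rieske iron-sulfur protein, 1.16-fold lower (1.10 to 1.23). The mitochondrial gene of this complex, mt-Cytb, which encodes cytochrome b, was 1.08-fold lower (1.06 to 1.10), from 23638 to 29218 counts. All 9 measured genes of complex III were therefore lower, by factors that ranged from 1.08 to 1.84.

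Complex IV, cytochrome c oxidase, reduces oxygen to water. It held the widest range, with 13 measured nuclear members, 2 lower and 1 higher at 1.5-fold, and a median of -0.12, which was -0.49 over the 6 genes without an overlap or a counted pseudogene. Cox6b1, an intermembrane space subunit gene, went from 1247 to 1066 counts, 1.56-fold lower (1.44 to 1.70). Its counterpart Cox6b2, best known from testis, had 39 and 20 counts, 2.60-fold lower with a wide interval (1.48 to 4.71). Cox4i1, the ubiquitous subunit 4 gene, was 1.29-fold lower (1.23 to 1.35) and Cox8a 1.43-fold lower (1.34 to 1.53). Other genes of the same complex did not share this direction. Cox5b was 1.10-fold higher (1.02 to 1.17). Cox7a2l, whose product joins complexes III and IV into supercomplexes, went from 1937 to 3181 counts, 1.23-fold higher (1.16 to 1.30).

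Cox6a2 was the only measured nuclear member at least 1.5-fold higher. This gene (chr7:128205435-128206387, minus strand) encodes the form of subunit 6a typical of heart and skeletal muscle, and Cox6a1 encodes the form of most other tissues. Cox6a2 had 160 counts in complete medium and 526 in methionine-free medium, 2.46-fold higher (2.06 to 2.96), while Cox6a1 went from 2674 to 2582 counts, 1.38-fold lower (1.31 to 1.46). The share of Cox6a2 in the counts of both genes was 5.65% (exact binomial 95% interval 4.82 to 6.56) in complete medium and 16.9% (15.6 to 18.3) in methionine-free medium, and per length it was 5.82% and 17.4%. Cox6a1 remained the more abundant gene in both libraries, at 259 and 188 CPM per kb against 16.0 and 39.5 for Cox6a2. Cox6a2 shares 70 exonic bases with Itgad on the opposite strand, which had 7 and 21 counts. The labels do not say whether reads were counted by strand.

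The other tissue-restricted forms of complex IV subunits were scarce in both libraries. Cox7a1, a muscle form, had 12 and 4 counts, Cox4i2, a lung form induced by low oxygen, had 1 and 4, and Cox8b, a muscle form, had 1 and 0. Cox7b2 and Cox8c had 0 counts in both, which allows up to 0.204 CPM in complete medium and 0.153 CPM in methionine-free medium (the floor of 3 counts). Ndufa4l2, the low-oxygen relative of Ndufa4, had 5 and 0 counts. These 6 genes were not measured by the minimum of 10 counts, and neither were mt-Atp8 and a second identifier of Atp5o with 0 counts.

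**Figure D2:**
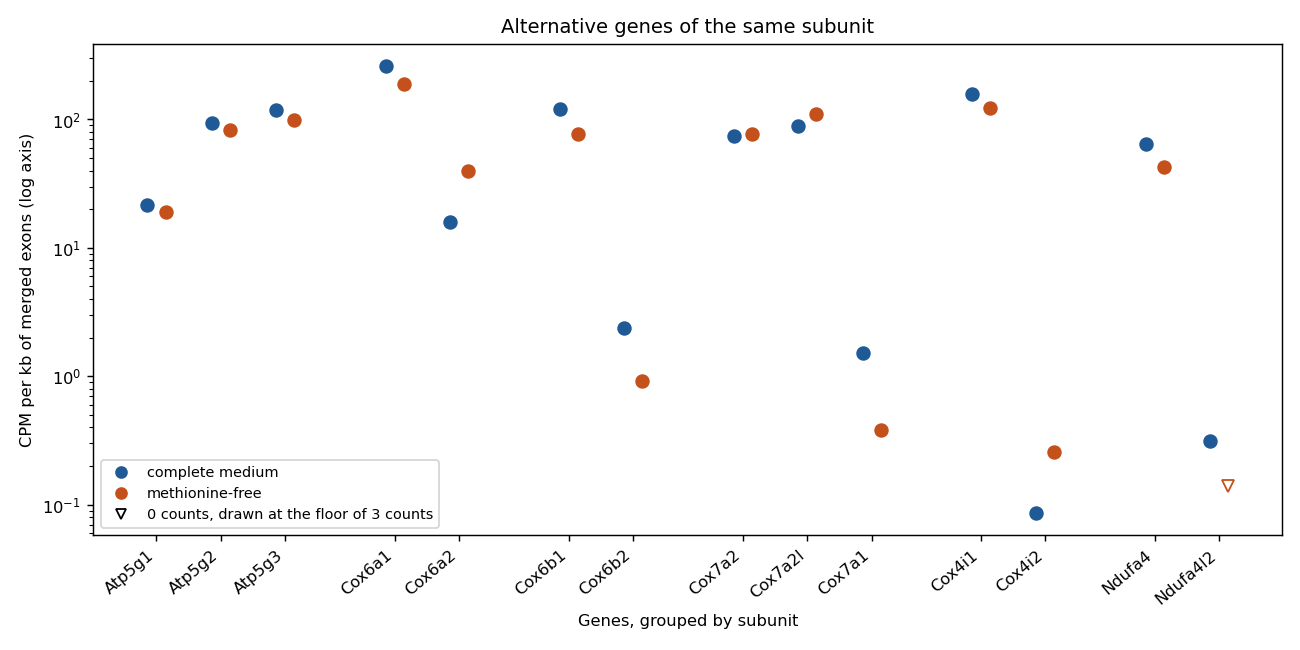
Levels (CPM per kb of merged exons, log axis) of genes that encode alternative forms of the same subunit, in complete medium (blue) and methionine-free medium (orange), 1 library each; open triangles mark 0 counts drawn at the floor of 3 counts. Cox6a2 is higher in methionine-free medium while Cox6a1 is lower, and the order of the abundant forms is kept within each group.

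Complex V had 17 measured nuclear members, 3 of them at least 1.5-fold lower and none higher, with a median of -0.19. The catalytic F1 head differed between its parts. Atp5b, the gene of the catalytic beta subunit, went from 24638 to 28781 counts, 1.14-fold lower (1.12 to 1.16), and Atp5a1, the alpha subunit gene, was 1.06-fold lower (1.04 to 1.09). These were the most abundant nuclear members, at 396 and 381 CPM per kb in complete medium. Atp5c1, which encodes the gamma subunit, the rotating shaft, went from 2989 to 2459 counts, 1.62-fold lower (1.54 to 1.71). Atp5e, the epsilon subunit gene, which sits on that shaft, went from 1498 to 1288 counts, 1.55-fold lower (1.44 to 1.67), while Atp5d, the delta gene of the same shaft, was 1.15-fold lower (1.10 to 1.20).

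The peripheral stalk, which holds the head still, gave the median nearest to 0 of any group of subunits, -0.01 over 4 genes. Atp5f1, Atp5h and Atp5j had intervals that held 1, and Atp5o was 1.11-fold higher (1.03 to 1.20). Atp5f1 and Atp5j overlap Wdr77 and Gabpa on the opposite strand. The 3 c ring genes encode the same mature protein from different precursors. Atp5g1, Atp5g2 and Atp5g3 were 1.13-fold, 1.13-fold and 1.19-fold lower. Their shares of the summed counts were 20.5%, 30.2% and 49.3% in complete medium and 21.0%, 31.1% and 48.0% in methionine-free medium. Atp5g1 has the processed pseudogene Gm10039, identical at 99.8% of 411 bases, with 500 and 725 counts, and summed with its copy it was 1.07-fold lower (1.01 to 1.14). Of the other membrane subunits, Atp5k, the gene of subunit e, which helps ATP synthases pair in the membrane, went from 174 to 126 counts, 1.84-fold lower (1.46 to 2.34). Atp5s, an accessory factor gene matched by its symbol rather than a subunit, had 93 and 83 counts, 1.495-fold lower (1.10 to 2.03), just short of the threshold.

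The 13 mitochondrial members took 1.31% of all counts in complete medium (exact binomial 95% interval 1.31 to 1.32) and 1.05% in methionine-free medium (1.05 to 1.06). Most of this difference lay in mt-Co1, which encodes the catalytic subunit of cytochrome c oxidase. It went from 79026 to 68568 counts, 1.54-fold lower (1.52 to 1.55), and from 41.1% to 33.2% of the mitochondrial members' counts. Without mt-Co1 the share of all counts was 0.773% and 0.703%. The other abundant mitochondrial genes were close to their complete-medium values. The complex I genes mt-Nd1, mt-Nd2, mt-Nd4 and mt-Nd5 were 1.15-fold, 1.14-fold, 1.07-fold and 1.04-fold lower, from 1916, 1233, 887 and 1583 CPM in complete medium to 1666, 1082, 830 and 1517 CPM. The light-strand gene mt-Nd6, also of complex I, had 5160 and 6693 counts and an interval that held 1. Beside them the ribosomal RNAs of the same genome went from 6533 to 2691 counts for mt-Rnr1 and from 12769 to 8405 for mt-Rnr2, and the labels name both a whole-RNA kit and an mRNA kit without assigning them; the part of library preparation in these differences was not tested.

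The remaining mitochondrial genes had lower levels per length, and each measured one matched a copy in a block on chromosome 1 (chr1:24611535-24616197) along nearly all of its length. Copies were not listed for mt-Atp8, which was not measured. mt-Co2 had 902 and 1163 counts and its copy Gm28661 had 1444 and 938, so the gene alone gave a ratio whose interval held 1, while the sum was 1.49-fold lower (1.40 to 1.58). mt-Co3, which encodes the third core subunit of complex IV, had 482 and 416 counts, 1.55-fold lower (1.35 to 1.77), its identical copy Gm28437 had 482 and 319, and the sum was 1.75-fold lower (1.59 to 1.93). mt-Atp6, the gene of the proton channel subunit of ATP synthase, had 444 and 616 counts and its copy Gm10925 had 569 and 562. The gene alone gave a ratio of 1.04 whose interval held 1, and the sum lay on the other side, 1.15-fold lower (1.05 to 1.249). mt-Nd3 was the only mitochondrial member at least 1.5-fold higher, with 65 and 140 counts, 1.61-fold (1.19 to 2.20). Its copy Gm28438 had 360 and 326 counts, and here too the sum turned the direction, to 1.22-fold lower (1.06 to 1.39). mt-Nd4l had 39 and 27 counts, 1.93-fold lower (1.15 to 3.27), and its identical copy Gm10222 had 104 and 97. This gene shares 1 messenger RNA and 7 bases with mt-Nd4, which had 13034 and 16255 counts. mt-Atp8, which overlaps mt-Atp6 by 43 bases, had 5 and 2 counts.

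Per length, the 5 lowest measured mitochondrial members, at 8.94 to 89.8 CPM per kb in complete medium (mt-Co2, mt-Co3, mt-Atp6, mt-Nd3 and mt-Nd4l), were the 5 with a chromosome 1 copy along at least 99% of the transcript. The copy covered 31.3% of mt-Co1 and 63.6% of mt-Nd4, and none was found on chromosome 1 for mt-Nd1, mt-Nd2, mt-Nd5, mt-Nd6 and mt-Cytb, whose levels in complete medium ran from 677 to 2002 CPM per kb. Of the genes with a partial copy, mt-Co1 was the highest of all, at 3483 CPM per kb, and mt-Nd4 stood at 644. The lowest was mt-Atp8, at 1.67, which was below the minimum count, and copies were kept for measured genes only. The part of the copies in the low levels was not tested. Each of the 7 chromosome 1 copies with a match had a ratio below 1, from 0.436 for Gm29216, the copy of part of mt-Co1, to 0.740 for Gm10925.

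**Figure D3:**
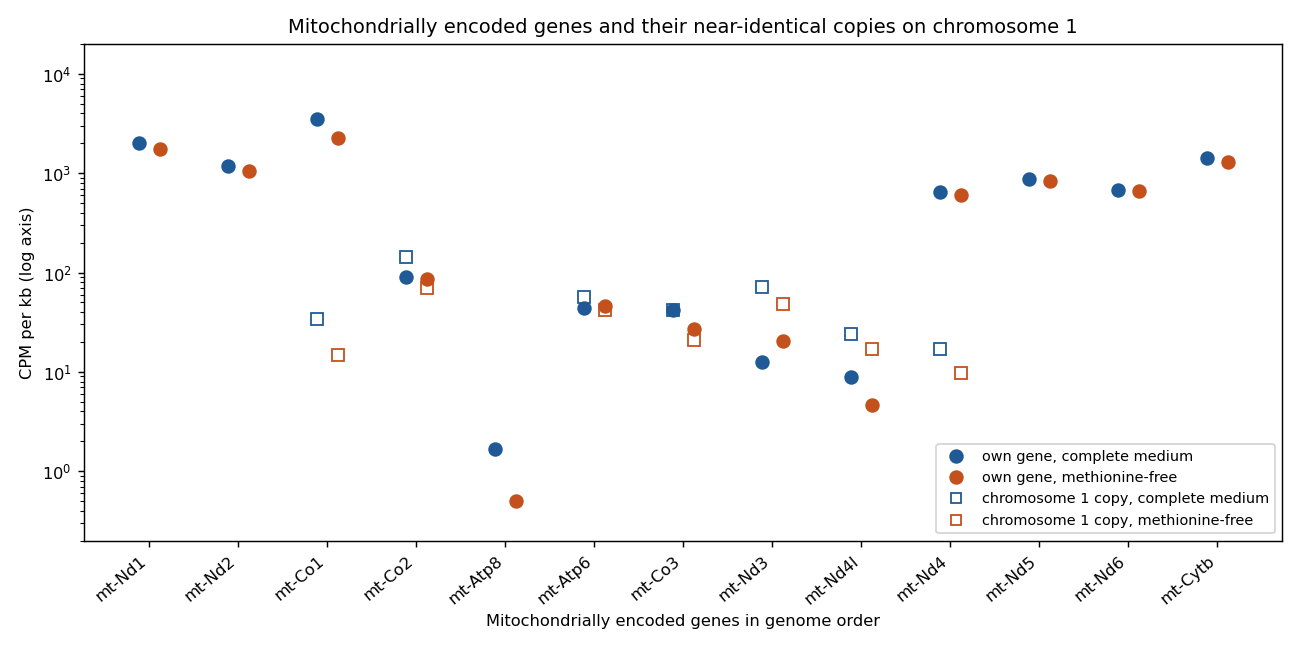
Levels (CPM per kb, log axis) of the 13 mitochondrially encoded members in genome order (filled circles) and of their near-identical copies on chromosome 1 (open squares), in complete medium (blue) and methionine-free medium (orange), 1 library each. The genes from mt-Co2 to mt-Nd4l lie far below the others, near or below the level of their copies, and mt-Co1 is highest in both libraries. No copy is drawn for mt-Atp8, which was not measured and for which copies were not listed.

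Genes that assemble the complexes were divided as a whole, with differences between complexes. Of 57 measured assembly factor genes, 29 had a log2 difference below 0, against 47.6% of all measured genes, and the median was -0.01. At 1.5-fold, 5 were lower, against 18.0% of all measured genes, and 3 were higher, against 15.7%. For complex I the largest differences were those of Dmac2, at 360 and 873 counts, 1.82-fold higher (1.61 to 2.06), Ndufaf2, 1.54-fold lower (1.26 to 1.89), Ndufaf4, 1.51-fold higher (1.39 to 1.65), and Ecsit, 1.49-fold lower (1.35 to 1.65). Complex II and complex III factors had medians of 0.11 and 0.22 and no gene past 1.5-fold; Sdhaf2, which helps attach flavin to Sdha, was 1.45-fold higher (1.32 to 1.60), and Uqcc3 1.42-fold higher (1.20 to 1.69). Complex III thus had subunit genes with a median of -0.45 beside assembly genes with a median of 0.22; this difference between groups of genes has no replicate check. Of 24 complex IV factors, 13 were below 0 and 11 above, with a median of -0.07. Their intervals lay wholly below 1 for 8, against 31.5% of all measured genes, and wholly above 1 for 7, against 35.3%. Cox20, named after its values were seen, had 8 and 29 counts, 2.72-fold higher with a wide interval (1.21 to 6.88), and was the only assembly gene past 2-fold. Higd1a, induced by low oxygen in other cells, went from 1203 to 835 counts, 1.92-fold lower (1.76 to 2.10), and Cmc2, Pet100 and Cmc1 were 1.62-fold, 1.59-fold and 1.55-fold lower. All 5 complex V factors had a log2 difference below 0, against 47.6% of all measured genes, but none passed 1.5-fold and 2 intervals held 1. Their median was -0.20, beside -0.19 for the nuclear subunit genes of that complex. Fmc1 was lowest, at 1.27-fold lower (1.04 to 1.55).

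**Figure D4:**
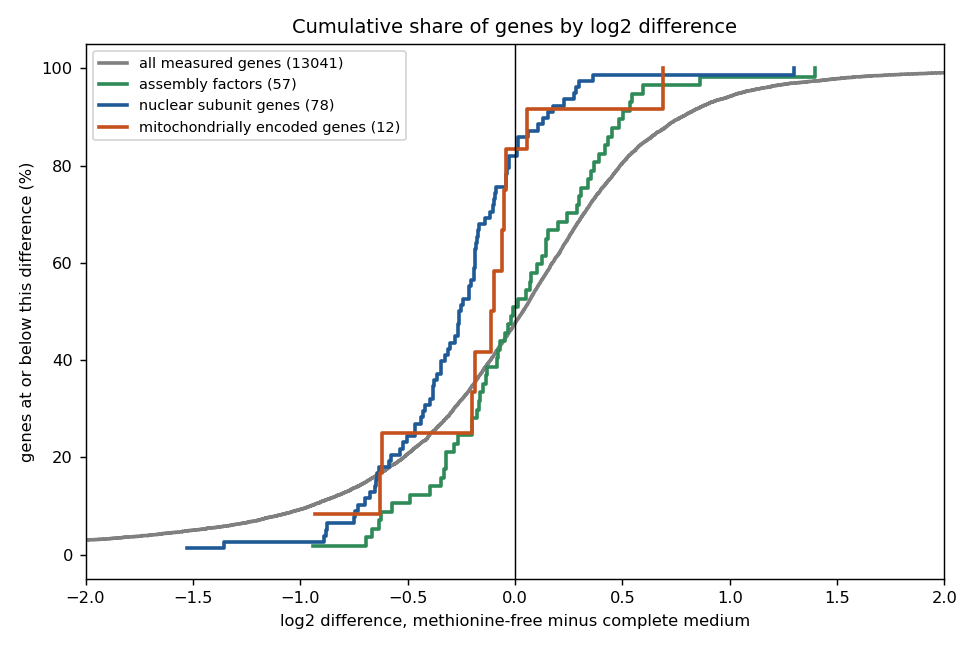
Cumulative share of genes (%) by log2 difference (methionine-free minus complete medium) for the 78 measured nuclear subunit genes, the 12 mitochondrially encoded genes, the 57 assembly factor genes and all 13041 measured genes, 1 library per medium. The nuclear subunit curve crosses 0 at 82.1%. The assembly factor curve is near that of all genes at 0 but steeper, with quartiles of -0.20 and 0.31 against -0.39 and 0.40.

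Structural genes of the chain that the symbol pattern leaves out were lower too. Usmg5, which encodes a small ATP synthase subunit, was 1.64-fold lower (1.47 to 1.82), and Atpif1, the ATP synthase inhibitor gene, 1.49-fold lower (1.30 to 1.71). Cycs, the gene of cytochrome c, went from 189 to 140 CPM, 1.35-fold lower (1.28 to 1.43), and Cyc1, the cytochrome c1 gene of complex III, from 188 to 148 CPM, 1.27-fold lower (1.21 to 1.34). All 5 measured genes of this list had intervals wholly below 1, against 31.5% of all measured genes. At 1.5-fold 1 of them was lower, against 18.0%, and 0 were higher, against 15.7%.

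The cofactor pathways were mixed, and their counts at 1.5-fold stand beside 18.0% lower and 15.7% higher over all measured genes. In heme synthesis, which supplies complexes II to IV, 7 of 8 genes had a log2 difference below 0, against 47.6% of all measured genes. At 1.5-fold 1 of them was lower and none higher, and the median was -0.29. In iron-sulfur cluster assembly, which supplies complexes I to III, 2 of 16 were at least 1.5-fold lower and 1 higher (median -0.01). Fdxr, the ferredoxin reductase gene, was 1.61-fold lower (1.44 to 1.81), and Iba57, a late-acting cluster factor gene, 1.69-fold higher (1.43 to 2.0). Hspa9, the mitochondrial Hsp70 gene, was 1.49-fold higher (1.46 to 1.51). In coenzyme Q synthesis, 2 of 13 were lower and 1 higher (median -0.09), with Coq7 and Coq6, both hydroxylase genes of the ring, 1.74-fold and 1.60-fold lower and Coq10b 1.55-fold higher.

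Of the 26 measured genes that copy and transcribe mitochondrial DNA or process its RNA, 3 were at least 1.5-fold higher and 1 lower, with a median of 0.08. Over all measured genes 15.7% were higher and 18.0% lower, and these shares also stand beside the nuclear regulators below. Tfb2m, an initiation factor of mitochondrial transcription, went from 368 to 879 counts, 1.79-fold higher (1.58 to 2.03). Twnk, the replicative helicase gene, was 1.63-fold higher (1.48 to 1.80), Trmt10c, of the enzyme that cuts tRNAs from the transcript, 1.56-fold higher (1.42 to 1.71), and its partner Hsd17b10 1.52-fold lower (1.38 to 1.67). Among nuclear regulators of respiratory genes, 1 of 12 was higher and none lower (median 0.15): Myc was 1.62-fold higher (1.59 to 1.66). Yy1 was 1.43-fold higher (1.36 to 1.49), Ppargc1b, of a PGC-1 coactivator, 1.45-fold lower (1.18 to 1.79), and Esrra, of the nuclear receptor ERR alpha, 1.35-fold lower (1.19 to 1.52). Ppargc1a had 1 and 2 counts.

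Promoters of nuclear members were searched for 5 short motifs of factors known for respiratory genes, on both strands, in RefSeq windows (GRCm38.p6) of 250 bases before to 50 bases after each start. Of the nuclear member symbols, 68 of 84 had a window. The NRF1 motif, a 10-base palindrome with 1 free position, was in the windows of 17 of the 68 members (25%), against 5.19% of 27025 genes with a window, and its strict form without the free position, whose matches are all matches of the first, in 5 (7.35%) against 1.07%. The ETS motif of GABPA, CCGGAAG, was in 16 members (23.5%) against 9.93%, the YY1 motif AAGATGGC in 10 (14.7%) against 3.19%, and the ERR motif TCAAGGTCA in 2 (2.94%) against 0.466%. A match to such letters is a description of the sequence. Shown here are 100 bases of the 4 promoters of members at least 1.5-fold lower that hold the NRF1 motif with its free position before the start, with the match in capitals: Atp5c1 (chr2:10080433-10080532), Atp5k (chr5:108434400-108434499), Ndufs5 (chr4:123718205-123718304) and Ndufs6 (chr13:73328483-73328582), all on the minus strand.
Atp5c1: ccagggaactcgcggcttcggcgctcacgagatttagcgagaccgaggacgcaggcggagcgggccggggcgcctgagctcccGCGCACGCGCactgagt
Atp5k: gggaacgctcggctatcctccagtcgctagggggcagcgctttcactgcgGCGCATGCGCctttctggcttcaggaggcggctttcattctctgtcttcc
Ndufs5: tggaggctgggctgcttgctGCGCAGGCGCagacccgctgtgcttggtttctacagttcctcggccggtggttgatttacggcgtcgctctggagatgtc
Ndufs6: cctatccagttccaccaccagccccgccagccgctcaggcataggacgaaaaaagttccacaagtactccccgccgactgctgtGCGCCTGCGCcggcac
Of measured members with the NRF1 motif, 4 of 17 were at least 1.5-fold lower (median -0.25), as were 10 of 48 without it (median -0.26), and for its strict form the counts were 1 of 5 (median -0.47) and 13 of 60 (median -0.25). For the ETS motif the counts were 5 of 16 with it (median -0.45) and 9 of 49 without it (median -0.22). For the YY1 motif they were 1 of 10 (median -0.19) and 13 of 55 (median -0.27), and for the ERR motif 0 of 2 (median -0.25) and 14 of 63 (median -0.27).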

How the data were processed

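Members and lists were chosen with earlier results of these data known. RNA of CD8+ T cells was measured in 1 library per medium. The deposited file holds whole-number gene counts, not normalized; the submitters' processing notes name the build mm10. Aligner, counter, annotation release and use of strand: not given in the sources used here. Column names in the header, a misspelt word for control and a name beginning with Met, were matched to the samples' titles. Symbols, exons and coordinates came from GENCODE M21 (GRCm38, the assembly of mm10; 54495 identifiers matched, 37 did not). Merged exons include retained introns, which lowers levels per length of some genes.

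Counts were scaled by TMM (edgeR 4.0.16, R 4.3.3; factors 1.003 and 0.997). Log2 differences used a prior count of 0.5 and a minimum mean of 10 counts. Intervals are exact conditional (Clopper-Pearson, scipy 1.17.1) and, without molecular identifiers, cover counting error only. Calls were by size, at 1.5-fold. Copies were found with blastn 2.17.0 at 95% identity or more over at least 100 bases, and were kept for measured members only. The steps were tested on simulated counts. Any member could be named; full values went to those past 1.5-fold, to the 2 nuclear members of each complex with the largest differences above a mean of 50 counts, to the mitochondrial genes and to alternative forms, and of each related list the 4 genes with the largest differences above a mean of 50 counts could be named. Related genes named outside that rule (Ppargc1a and the mitochondrial ribosomal RNAs) were chosen after their values were seen. Alternatives were other scalings (DESeq2 1.42.0 size factors, library totals with and without mitochondrial genes), prior counts, minimum counts and thresholds, leaving out overlapping genes, and, added after the data were seen, adding the counts of copies. A few genes are counted in the summaries but not reported here by name.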

Additional observations from a re-analysis of the deposited data

How the results depend on the processing

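With 1 library per medium there is no spread between replicates, and genes with few counts, such as Cox6b2 and mt-Nd4l, have wide intervals. No paired analysis was possible because each group has 1 sample. DESeq2 size factors, library totals with and without mitochondrially encoded genes, and a prior count of 2 kept the counts of members, of each complex and of all assembly factors together within 1.5 times their reported values. Of the counts in single lists, 1 moved further with library totals (regulators, 1 lower). With totals without mitochondrial genes 4 did: complex I assembly had 2 lower and 1 higher, the structural genes outside the symbol pattern 2 lower, and the regulators 1 lower; the median of all genes moved from 0.04 to between 0.02 and 0.03.

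Without a minimum count, 2 nuclear members were at least 1.5-fold higher, and in complex IV 4 nuclear members were lower and 2 higher. With a mean of at least 100 counts, complex IV had 1 lower nuclear member and mitochondrial complex I had 0.

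At a lower threshold, a log2 difference of 0.32, 35 members were lower, 32 of them nuclear. Of the nuclear ones, 15 were in complex I, 6 in complex III, 5 in complex IV and 5 in complex V. At this threshold 2 nuclear members were higher, 1 of them in complex I, and assembly factors had 11 lower and 14 higher. The quartiles of all measured genes, -0.39 and 0.40, also lay past this threshold on each side. The shares of all measured genes past it are not given here. At 2-fold, 2 members were lower and 1 was higher, against 9.29% and 5.8% of all measured genes. Both lower members were nuclear, 1 each in complexes I and IV, with 0 in complexes II, III and V. Mitochondrial members, including those of complexes I and IV, had 0 lower and 0 higher, and assembly factors 0 lower and 1 higher.

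Without members that overlap another gene or have a pseudogene with counts, 34 members were left, 8 lower and 0 higher, all 8 nuclear. Complex I then had 3 lower, complex III 1 and complex V 1; complex IV had 0 higher; the medians of complexes II and IV were -0.24 and -0.49; and the 1 mitochondrial member left, mt-Cytb, gave 0 lower and 0 higher.

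With the counts of near-identical pseudogenes added, a setting chosen after seeing the data, 1 member was higher, and 0 mitochondrial members, complex I included; the medians were -0.20 for mitochondrial members and -0.19 for those of complex I; mt-Nd3 turned from 0.69 to -0.28 on the log2 scale; and the mitochondrial share was 1.34% and 1.06%. Of protein-coding counts alone it was 1.34% and 1.08%. The thresholds, the fewer genes and the added counts are how these settings differ by construction.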
